A study of Tupaia belangeri chinensis with 36 samples.

Results

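The miR-34 and miR-449 family was followed through the testis, the caput and the cauda of the epididymis of male Chinese tree shrews (Tupaia belangeri chinensis), in a reproductive and a non-reproductive season. The 6 members were the miRNA entries mmu-miR-34a-5p, mmu-miR-34b-5p, mmu-miR-34b-3p, mmu-miR-34c-5p, mmu-miR-34c-3p and mmu-miR-449a-5p, taken by name from a table of 1210 entries, of which 491 carry mouse names. Males were 1.5 to 2 years old. The R groups (TESTIS-R, CAPUT-R and CAUDA-R) were collected in the reproductive season in 2024, and the NR groups (TESTIS-NR, CAPUT-NR and CAUDA-NR) in the non-reproductive season in 2023. No treatment or genotype is labelled, the labels used here give no reproductive state of single animals, and season and collection date cannot be told apart. The labels give 3 biological replicates per tissue and season, 18 small RNA libraries in all. In the columns of TESTIS-NR 2 and CAPUT-NR 2, 100% of entries were the average, to within 0.5 counts, of replicates 1 and 3. Both columns were left out, which leaves 16 measured libraries and n = 2 in TESTIS-NR and CAPUT-NR. Measured libraries held 2166152 to 14756858 miRNA counts.

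A miRNA is cut from a hairpin, and either side of the hairpin can be kept: the 5p arm comes from its 5′ side and the 3p arm from its 3′ side. The 5p arms of miR-34a, miR-34b, miR-34c and miR-449a share a seed, the short stretch near the 5′ end that pairs with target messenger RNAs, and are therefore grouped as a family. In mammals miR-34b and miR-34c come from 1 primary transcript, miR-34a has a gene of its own that p53 activates, and miR-449a lies in an intron of CDC20B. In mice miR-34b, miR-34c and miR-449 are known for high levels in meiotic and postmeiotic male germ cells and in multiciliated cells, which also line the efferent ducts between testis and epididymis, and miR-34c is also known from sperm. The RefSeq gene table of the tree shrew assembly TupChi_1.0 lists 177 miRNA genes, and 3 of them carry a symbol of the family. MIR34A-1 and MIR34A-2 stand next to each other, beside GPR157, and MIR34C stands between HOATZ and LAYN. The 5p arms of miR-34b and miR-34c have near-identical sequences, and the rule by which reads matching both were assigned is not given in the sources at hand, so their split is uncertain.

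The first question was where in the tract the family is found. The family was highest in the testis. Its 6 members together took 0.596%, 0.830% and 0.815% of miRNA counts in TESTIS-R 1, 2 and 3. They took 0.0449% in TESTIS-NR 1 and 0.483% in TESTIS-NR 3. In the caput the share was 0.0400%, 0.0803% and 0.0673% in CAPUT-R and 0.0583% and 0.0346% in CAPUT-NR. In the cauda it was 0.128%, 0.0602% and 0.1001% in CAUDA-R and 0.0356%, 0.0353% and 0.0707% in CAUDA-NR. All 3 TESTIS-R libraries and TESTIS-NR 3 stood above every epididymal library, whereas TESTIS-NR 1 lay among them.

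**Figure D1:**
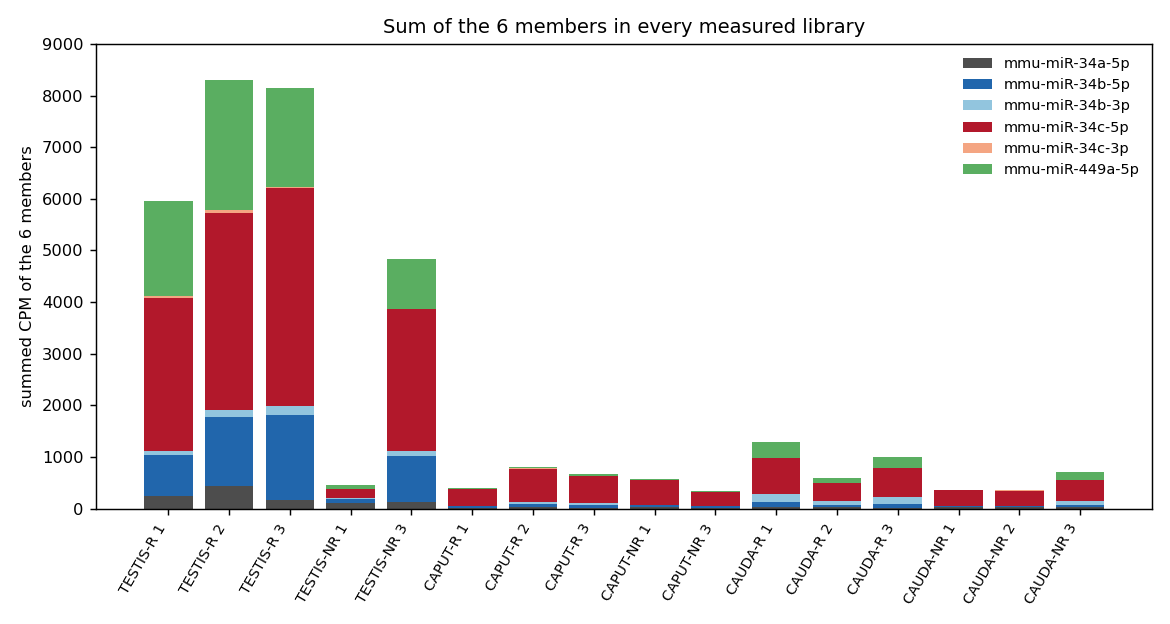
Summed level of the 6 members in each of the 16 measured libraries, in CPM (counts scaled to 1000000 miRNA counts per library, vertical axis), with each bar divided by member. TESTIS-R libraries reach 5956 to 8301 CPM, TESTIS-NR 1 stays at 449 CPM, and green segments (mmu-miR-449a-5p) are visible in testis, CAUDA-R and CAUDA-NR 3.

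The makeup of the family also differed between libraries, apart from its sum. Here and below a level is in CPM, the count scaled to 1000000 miRNA counts per library, and adaptor ligation favours some small RNAs over others, so levels of different members are not molar amounts. mmu-miR-34c-5p was the most abundant member in every measured library and took 46.1% to 51.9% of the family in TESTIS-R, against 78.0% to 82.5% in CAPUT-R and 53.6% to 57.0% in CAUDA-R. mmu-miR-449a-5p took 23.5% to 31.0% in TESTIS-R, 2.76% to 5.93% in CAPUT-R and 17.5% to 23.8% in CAUDA-R. The caput thus held little of the family besides mmu-miR-34c-5p, while testis and cauda in R shared a larger part of mmu-miR-449a-5p.

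**Figure D2:**
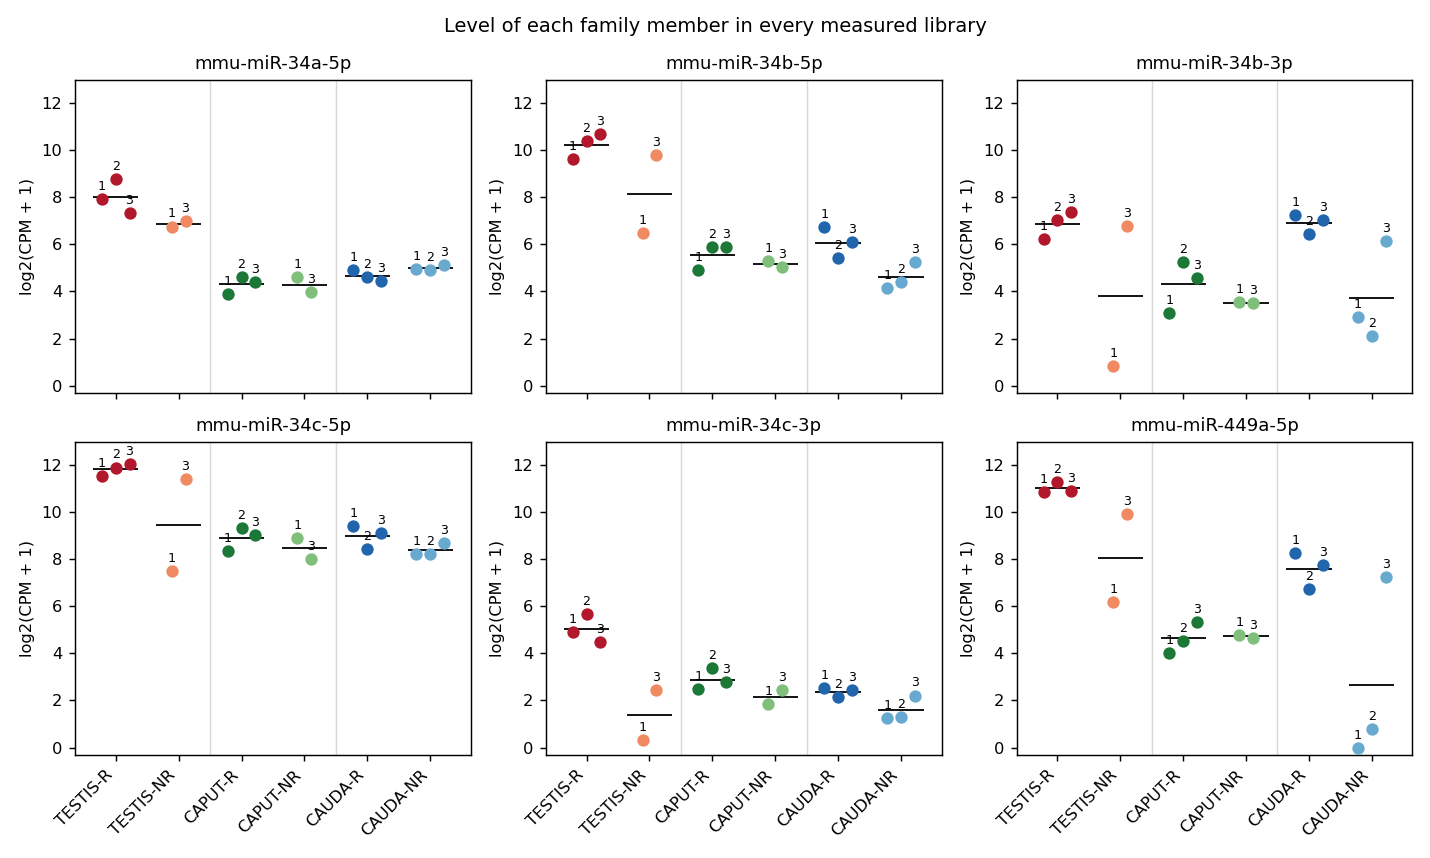
Level of each member as log2(CPM + 1) (vertical axis) by group. Each point is a measured library, labelled with its replicate number, and the line is the mean of the group on that scale. TESTIS-R stands highest in 5 panels, and in the panel of mmu-miR-34b-3p CAUDA-R lies level with it. TESTIS-NR 1 and CAUDA-NR 1 and 2 lie well below the third library of their groups for mmu-miR-34b-3p and mmu-miR-449a-5p.

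mmu-miR-34c-5p, the main product of the miR-34c hairpin, had 2964, 3825 and 4235 CPM in TESTIS-R, against 330.2, 651.3 and 524.8 CPM in CAPUT-R. In CAUDA-R it had 687.1, 343.3 and 561.4 CPM. The testis libraries of R stood above all others, and the ranges of both epididymal segments overlapped. edgeR's quasi-likelihood test with Benjamini-Hochberg adjustment over all miRNAs tested called it higher in TESTIS-R than in CAPUT-R (log2 change 2.26, SE 0.24, adjusted p = 0.00175) and higher than in CAUDA-R (log2 change 2.55, SE 0.28, adjusted p = 0.00118). In order of mean level the groups ran TESTIS-R (3675 ± 649 CPM, SD, n = 3), TESTIS-NR (1460 ± 1812, n = 2), CAUDA-R (530.6 ± 174, n = 3), CAPUT-R (502.1 ± 162, n = 3), CAPUT-NR (371.0 ± 156, n = 2) and CAUDA-NR (337.0 ± 65.6, n = 3), and of these neighbours only TESTIS-R and TESTIS-NR had ranges that did not overlap.

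mmu-miR-34b-5p comes from the same primary transcript. It had 800.2, 1336 and 1658 CPM in TESTIS-R, 28.8, 59.0 and 59.0 CPM in CAPUT-R and 105.2, 41.3 and 67.8 CPM in CAUDA-R. TESTIS-R again stood apart, and CAPUT-R and CAUDA-R overlapped. The change was 4.07 in log2 (SE 0.41, edgeR adjusted p = 0.00152) for TESTIS-R over CAPUT-R and 3.91 (SE 0.46, edgeR adjusted p = 0.00145) for TESTIS-R over CAUDA-R.

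mmu-miR-449a-5p, the member from the separate miR-449 cluster, was at 1847, 2518 and 1915 CPM in TESTIS-R. CAPUT-R held 15.3, 22.2 and 39.9 CPM and CAUDA-R 304.8, 105.4 and 216.0 CPM. These 3 groups did not overlap: testis was highest, cauda next and caput lowest. It was called higher in TESTIS-R than in CAPUT-R (log2 change 5.67, SE 0.50, edgeR adjusted p = 0.00152), the largest change of the 6 members in that comparison. It was also called higher in TESTIS-R than in CAUDA-R (log2 change 3.09, SE 0.38, edgeR adjusted p = 0.00168) and lower in CAPUT-R than in CAUDA-R (-2.68, SE 0.53, edgeR adjusted p = 0.0256).

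mmu-miR-34b-3p, the other arm of the miR-34b hairpin, followed a different order. It had 73.2, 129.8 and 164.8 CPM in TESTIS-R, 7.52, 37.5 and 22.9 CPM in CAPUT-R and 152.2, 85.5 and 130.1 CPM in CAUDA-R. Testis and cauda overlapped, and every caput library stood below both. TESTIS-R against CAUDA-R gave a log2 change of -0.25 (SE 0.38, edgeR adjusted p = 0.633), a value whose sign turned to 0.28 with scaling by the library total without the pair of miR-101 entries that are most abundant here. The member was called higher in TESTIS-R than in CAPUT-R (1.92, SE 0.54, edgeR adjusted p = 0.0280) and lower in CAPUT-R than in CAUDA-R (-2.21, SE 0.51, edgeR adjusted p = 0.0362).

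mmu-miR-34a-5p, the product of the gene that p53 activates, had 242.5, 442.9 and 159.7 CPM in TESTIS-R, 13.8, 23.8 and 20.2 CPM in CAPUT-R and 28.9, 23.4 and 21.0 CPM in CAUDA-R. mmu-miR-34c-3p, the minor arm of miR-34c, had 29.5, 49.6 and 21.7 CPM in TESTIS-R, 4.68, 9.45 and 5.87 CPM in CAPUT-R and 4.796, 3.40 and 4.43 CPM in CAUDA-R. For both, TESTIS-R stood above all epididymal libraries of R, which overlapped among themselves. Log2 changes of mmu-miR-34a-5p were 3.25 over CAPUT-R (SE 0.46, edgeR adjusted p = 0.00387) and 3.25 over CAUDA-R (SE 0.48, edgeR adjusted p = 0.00340). For TESTIS-R the log2 change of mmu-miR-34c-3p was 1.74 over CAPUT-R (SE 0.43, edgeR adjusted p = 0.0173) and 2.73 over CAUDA-R (SE 0.43, edgeR adjusted p = 0.00413). Between CAPUT-R and CAUDA-R the log2 changes of the members not called were -0.05 for mmu-miR-34a-5p (SE 0.26), -0.24 for mmu-miR-34b-5p (SE 0.40), 0.22 for mmu-miR-34c-5p (SE 0.28) and 0.94 for mmu-miR-34c-3p (SE 0.33), with edgeR adjusted p of 0.110 to 0.917.

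In R, 6 of 6 members were therefore higher in testis than in caput, where 24.6% of the 467 miRNAs tested were called higher. Between testis and cauda 5 of 6 were higher, where again 24.6% of the 476 tested were. Between caput and cauda 2 of 6 were called, both lower in caput, where 17.4% of the 484 tested were called in either direction and 7.44% lower. Median log2 changes of the members were 2.75, 2.91 and -0.15 in these comparisons, beside -0.07, 0.06 and -0.0019 over all miRNAs tested. The comparisons share their libraries pairwise, so their results are not independent. How many of all miRNAs have tissue ranges without overlap in R is not given here, so the separations above describe the members only. Tissues differ in their whole miRNA makeup: scaling by library total moved the median of all miRNAs to 0.57 for testis over caput, 0.34 for testis over cauda and -0.30 for caput over cauda in R, and the CPM given above are on that scale.

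Not all of these calls were equally firm. The calls of mmu-miR-34b-3p and mmu-miR-34c-3p between TESTIS-R and CAPUT-R were lost without several single libraries. For mmu-miR-34b-3p they were TESTIS-R 2, TESTIS-R 3 and each CAPUT-R library (adjusted p 0.0741 to 0.102), and for mmu-miR-34c-3p TESTIS-R 1 and each CAPUT-R library (0.0514 to 0.113). With no filter on low counts both were lost too (adjusted p 0.0868 for mmu-miR-34b-3p and 0.107 for mmu-miR-34c-3p), as they were with all libraries in 1 fit (0.268 and 0.122). Between CAPUT-R and CAUDA-R, leaving out any 1 of the 6 libraries lost the call of mmu-miR-449a-5p (0.0543 to 0.116), and leaving out any but CAPUT-R 2 lost that of mmu-miR-34b-3p (0.0590 to 0.134). Those 6 fits called 8 to 68 of the 523 to 562 miRNAs tested, against 84 of 484 with no library left out. The losses were therefore not particular to these members. Adjusted p of mmu-miR-449a-5p was 0.0829 with replicate number as a block, 0.0596 with no filter and 0.480 with all libraries in 1 fit, and of mmu-miR-34b-3p 0.149, 0.0705 and 0.427, so both calls were lost in each. The block called 0 of all 484 miRNAs there. Leaving out a library turned the direction of 0 of these 4 changes, and the other calls in R held without each library in turn.

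These are bulk tissues, in which fewer cells of a type and less RNA per cell cannot be told apart. The marker miRNAs of other cell types differed between the same tissues. The 5 epithelial miRNAs of the miR-200 family and miR-141 summed to 201 to 2112 CPM in TESTIS-R, 87098 to 116976 CPM in CAPUT-R and 62187 to 94722 CPM in CAUDA-R, with 5 of 5 listed and 0 at 0 counts. The 2 smooth muscle miRNAs summed to 5072 to 11948 CPM in TESTIS-R, 5456 to 10694 CPM in CAPUT-R and 27398 to 38298 CPM in CAUDA-R, also with 0 at 0 counts. mmu-miR-202-5p, known from the testis, had at least 17395 CPM in each testis library and at most 382.6 CPM in any epididymal one. It is on a list of 14 testis miRNAs outside the family, of which 3 are in the table, and another of these, mmu-miR-184-3p, did not separate the tissues in NR (1.79 and 20.9 CPM in TESTIS-NR, 14.3 and 14.7 CPM in CAPUT-NR). The part of cell makeup in the tissue differences was not tested.

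**Figure D3:**
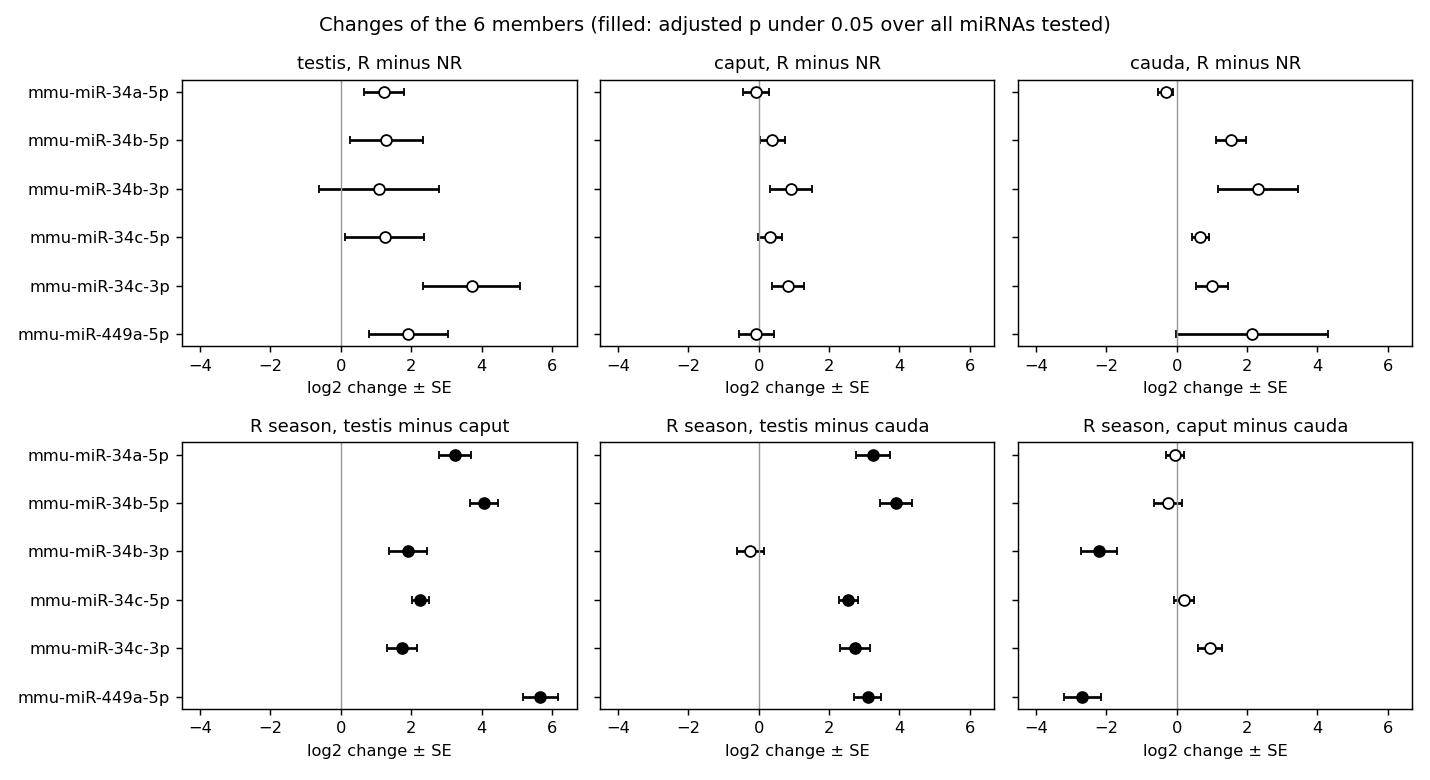
Log2 changes of the 6 members with standard errors from edgeR (horizontal axis), with R minus NR in each tissue above and tissue contrasts within R below. Filled points have an adjusted p under 0.05 over all miRNAs tested. All upper points are open, while 6, 5 and 2 of the lower points are filled.

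In the non-reproductive season the TESTIS-NR libraries differed from each other, and fewer members separated the tissues. mmu-miR-34a-5p and mmu-miR-34b-5p were the members whose TESTIS-NR libraries both stood above the epididymis. The share of all miRNAs that separate in this way is not given here, so this describes the members only. mmu-miR-34a-5p was close in the TESTIS-NR libraries, with 107.6 and 126.8 CPM in TESTIS-NR 1 and 3, 23.4 and 14.7 CPM in CAPUT-NR and 30.3, 29.3 and 33.5 CPM in CAUDA-NR. Both testis libraries stood above all epididymal libraries of NR. It was the 1 member called, higher in TESTIS-NR than in CAUDA-NR (log2 change 1.66, SE 0.39, edgeR adjusted p = 0.0378), where 12.1% of the 481 miRNAs tested were called higher and 29.9% in either direction. That call was lost without any 1 of the 3 CAUDA-NR libraries (adjusted p 0.0596 to 0.0840), with no filter on low counts (0.0638) and with replicate number as a covariate (0.216). Most other calls were lost there too. Without CAUDA-NR 1, 2 or 3 the comparison called 0 of 431, 0 of 437 or 18 of 431 miRNAs, against 144 of 481 with no library left out. With no filter 5.36% of all miRNAs tested were called, and with the covariate 0%. In this contrast the median of all miRNAs was -0.34 with the TMM scaling of edgeR and -0.08 with library totals.

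mmu-miR-34b-5p had 88.7 and 885 CPM in TESTIS-NR 1 and 3, 38.0 and 31.7 CPM in CAPUT-NR and 16.8, 20.4 and 36.9 CPM in CAUDA-NR. Even TESTIS-NR 1 stood above the epididymis here, although the libraries of TESTIS-NR were 9.98-fold apart. The log2 change over CAUDA-NR was 4.06 (SE 1.13, edgeR adjusted p = 0.0522), and DESeq2 called it (4.44, adjusted p = 0.000925). mmu-miR-34c-5p had 178.6 and 2741 CPM in TESTIS-NR 1 and 3, 481.6 and 260.4 CPM in CAPUT-NR and 300.5, 297.8 and 412.7 CPM in CAUDA-NR. TESTIS-NR 1 lay below all 5 of these epididymal libraries and TESTIS-NR 3 above them. Without TESTIS-NR 1 the log2 change of mmu-miR-34c-5p over CAUDA-NR was 2.58 and was called (edgeR adjusted p = 0.0144), and without TESTIS-NR 3 it was -0.80 (0.201), with a lone testis library assumed to vary like the cauda libraries.

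The other members gave no clear order of tissues in NR. mmu-miR-449a-5p, with 72.8 and 965.7 CPM in TESTIS-NR, 26.7 and 24.4 CPM in CAPUT-NR and 0, 0.704 and 151.2 CPM in CAUDA-NR, had log2 changes of 3.80 for testis over caput (SE 1.32, edgeR adjusted p = 0.145) and 3.002 for testis over cauda (SE 2.89, 0.481). mmu-miR-34b-3p, with 0.766 and 107.9 CPM in TESTIS-NR, 10.7 and 10.4 CPM in CAPUT-NR and 6.59, 3.29 and 69.5 CPM in CAUDA-NR, had log2 changes of 1.81 for testis over caput (SE 1.96, edgeR adjusted p = 0.5995) and 0.73 for testis over cauda (SE 2.13, 0.816). mmu-miR-34c-3p was low everywhere in NR, with 0.255 and 4.51 CPM in TESTIS-NR, 2.58 and 4.38 CPM in CAPUT-NR and 1.38, 1.49 and 3.63 CPM in CAUDA-NR. All tissues overlapped for these 3 members, except that both TESTIS-NR libraries stood above CAPUT-NR for mmu-miR-449a-5p. Between TESTIS-NR and CAPUT-NR 0 of 6 members were called, where 0% of the 433 tested were, although 2 members and 142 miRNAs reached an unadjusted p under 0.05. With DESeq2 the count of members was also 0 there, where 17.5% of the 521 miRNAs tested were called. Between CAPUT-NR and CAUDA-NR 0 of 6 were called by edgeR and by DESeq2. There edgeR called 10.7% of the 476 tested, and DESeq2 called 21.8% of the 620 it tested. In edgeR 1 member had an unadjusted p under 0.05, as did 139 of all 476 miRNAs.

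The second question was whether the family differs between seasons within a tissue. No member passed the test in any tissue. In the testis every log2 change of R over NR was positive, with a median of 1.27 beside 0.10 over all miRNAs, but 0 of 6 members and 0% of the 496 miRNAs tested were called by edgeR. For DESeq2 the count was 0 of 6 as well, where 3.4% of the 765 miRNAs tested were called. In edgeR 36 of the 496 miRNAs had an unadjusted p under 0.05, and the 1 member among them was mmu-miR-34c-3p. It had 29.5, 49.6 and 21.7 CPM in TESTIS-R, against 0.255 CPM (1 count) and 4.51 CPM (16 counts) in TESTIS-NR 1 and 3. Both TESTIS-NR libraries thus stood below all TESTIS-R libraries, with a log2 change of 3.72 (SE 1.37, edgeR adjusted p = 0.598). The change was 1.23 for mmu-miR-34a-5p (SE 0.57, 0.714), 1.29 for mmu-miR-34b-5p (SE 1.04, 0.859) and 1.24 for mmu-miR-34c-5p (SE 1.12, 0.889).

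The libraries of TESTIS-NR decided most of these values. Levels of mmu-miR-449a-5p were 1847 to 2518 CPM in TESTIS-R, against 72.8 and 965.7 CPM in TESTIS-NR 1 and 3 (log2 change R over NR 1.92, SE 1.11, adjusted p = 0.726 by edgeR). mmu-miR-34b-3p had 73.2 to 164.8 CPM in TESTIS-R, against 0.766 CPM (3 counts) and 107.9 CPM in TESTIS-NR 1 and 3, and its log2 change was 1.08 (SE 1.71, edgeR adjusted p = 0.992), or -0.01 without TESTIS-NR 1. TESTIS-NR 3 lay within the range of TESTIS-R for mmu-miR-34b-3p and below it for mmu-miR-449a-5p, and TESTIS-NR 1 lay far below it for both. In 4 of 6 members all TESTIS-R libraries stood above both TESTIS-NR libraries, against 19.2% of all miRNAs tested. The log2 changes without TESTIS-NR 3 were 3.87 for mmu-miR-34b-5p, 4.395 for mmu-miR-34c-5p, 6.89 for mmu-miR-34c-3p, 4.88 for mmu-miR-449a-5p and 7.29 for mmu-miR-34b-3p. Without TESTIS-NR 1 they were 0.32 for mmu-miR-34b-5p, 0.23 for mmu-miR-34c-5p, 2.70 for mmu-miR-34c-3p and 0.92 for mmu-miR-449a-5p. mmu-miR-34a-5p moved less, to 1.44 without TESTIS-NR 3 and 0.97 without TESTIS-NR 1. Leaving out any 1 library of the testis called 0 of 6 members, with a lone TESTIS-NR library, where 1 was left, assumed to vary like TESTIS-R. piRNA counts amounted to 151, 134 and 209 per 100 miRNA counts in TESTIS-R, against 6.64 in TESTIS-NR 1. piRNAs are known mainly from germ cells, but epididymal libraries with both columns measured also held 0.11 to 1.75 per 100 miRNA counts. In the cauda the values were 0.87, 0.33 and 0.74 in CAUDA-R, against 1.75, 0.82 and 1.02 in CAUDA-NR 1, 2 and 3. The 3 striated muscle miRNAs summed to 91.4 to 101 CPM in TESTIS-R, against 159 and 1020 CPM in TESTIS-NR 1 and 3. For the 5 epithelial miRNAs the sums were 201 to 2112 CPM, against 3300 and 271 CPM. For the 3 testis miRNAs outside the family they were 21930 to 69450 CPM, against 65830 and 17483 CPM. The 6 miRNAs of mitotic germ cells and proliferation, all 6 listed and 0 at 0 counts, include mmu-miR-25-3p, which is also among the 5 most like the family. They summed to 24260 to 31858 CPM in TESTIS-R, against 7196 and 24057 CPM in TESTIS-NR 1 and 3. Most of each sum was mmu-miR-25-3p, with 22766 to 30449 CPM in TESTIS-R and 6693 and 22677 CPM in TESTIS-NR 1 and 3. mmu-miR-18a-5p and mmu-miR-20a-5p were also higher in TESTIS-R without overlap, and mmu-miR-17-5p and mmu-miR-92a-3p overlapped. mmu-miR-106b-5p was lower in TESTIS-R (1.46 to 5.83 CPM, against 6.39 to 14.4 CPM in TESTIS-NR). The piRNA column of TESTIS-NR 3 was itself an average of the other TESTIS-NR columns, in 100% of entries to within 0.5 counts, and was not used. Their part in the family's values was not tested.

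In the caput no member passed the test between seasons. The family summed to 400 to 803 CPM in CAPUT-R, against 346 and 583 CPM in CAPUT-NR. mmu-miR-449a-5p was at 15.3, 22.2 and 39.9 CPM in CAPUT-R, against 26.7 and 24.4 CPM in CAPUT-NR, which lay inside the range of R. Log2 changes of R over NR were -0.08 for mmu-miR-34a-5p, -0.06 for mmu-miR-449a-5p, 0.32 for mmu-miR-34c-5p, 0.38 for mmu-miR-34b-5p, 0.83 for mmu-miR-34c-3p and 0.92 for mmu-miR-34b-3p (SE 0.35 to 0.60, edgeR adjusted p 0.778 to 0.991). The negative values of mmu-miR-34a-5p and mmu-miR-449a-5p turned to 0.015 and 0.012 with scaling by library total. edgeR called 0 of 6 members and 0% of the 534 miRNAs tested, and unadjusted p-values under 0.05 went to 0 members and 24 of all 534 miRNAs. The count of members by DESeq2 was 0 as well, where 1.52% of the 921 miRNAs tested were called. mmu-miR-34c-3p alone had groups that did not overlap, with 4.68 to 9.45 CPM in CAPUT-R and 2.58 and 4.38 CPM in CAPUT-NR, where 13.7% of all miRNAs tested stood higher in R without overlap.

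In the cauda, mmu-miR-449a-5p had the widest spread of any member. It had 304.8, 105.4 and 216.0 CPM in CAUDA-R. In CAUDA-NR 1 it had 0 of 6528407 counts, where 3 counts would be 0.460 CPM. In CAUDA-NR 2 it had 0.704 CPM (9 counts), and in CAUDA-NR 3 it had 151.2 CPM (999 counts). CAUDA-NR 3 lay within the range of CAUDA-R, and the other CAUDA-NR libraries were at or near the floor. The log2 change was 2.14 (SE 2.15, edgeR adjusted p = 0.596). Without CAUDA-NR 3 the fitted log2 change of mmu-miR-449a-5p was 8.87 (edgeR adjusted p = 0.0507), with 0 and 9 counts left in CAUDA-NR. With replicate number as a block it was 6.67 (edgeR adjusted p = 0.542).

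mmu-miR-34b-3p showed the same division in the cauda. It had 152.2, 85.5 and 130.1 CPM in CAUDA-R, against 6.59, 3.29 and 69.5 CPM in CAUDA-NR 1, 2 and 3. No CAUDA-NR library reached CAUDA-R, and CAUDA-NR 3 came close. The log2 change was 2.31 (SE 1.12, edgeR adjusted p = 0.353), and without CAUDA-NR 3 it was 4.63 and was called (0.0293), the 1 call of a member among all fits of this comparison that left out a library.

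The 5p arms of miR-34b and miR-34c had smaller log2 changes. mmu-miR-34b-5p had 105.2, 41.3 and 67.8 CPM in CAUDA-R, against 16.8, 20.4 and 36.9 CPM in CAUDA-NR, with no overlap (log2 change 1.55, SE 0.42, edgeR adjusted p = 0.166). DESeq2 called it (1.54, adjusted p = 0.0104). mmu-miR-34c-5p had 687.1, 343.3 and 561.4 CPM in CAUDA-R, against 300.5, 297.8 and 412.7 CPM in CAUDA-NR, with overlap (0.67, SE 0.25, edgeR adjusted p = 0.250). mmu-miR-34c-3p had 4.796, 3.40 and 4.43 CPM in CAUDA-R, against 1.38, 1.49 and 3.63 CPM in CAUDA-NR, also with overlap (1.01, SE 0.46, edgeR adjusted p = 0.332). mmu-miR-34a-5p had the opposite sign, with 28.9, 23.4 and 21.0 CPM in CAUDA-R, against 30.3, 29.3 and 33.5 CPM in CAUDA-NR (-0.31, SE 0.20, edgeR adjusted p = 0.428). Over the 6 members, 2 stood higher in CAUDA-R without overlap, where 13% of all miRNAs tested did, and 1 stood lower, where 14.3% did. edgeR called 0 of 6 members and 3.08% of the 455 miRNAs tested, with 2 members and 75 of all 455 miRNAs at an unadjusted p under 0.05.

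Among marker miRNAs in the cauda, the 5 leukocyte miRNAs summed to 2062 to 5346 CPM in CAUDA-R, against 6559, 8832 and 3834 CPM in CAUDA-NR 1, 2 and 3, with 5 of 5 listed and 0 at 0 counts. The 2 endothelial miRNAs summed to 18224 to 24971 CPM in CAUDA-R, against 32551, 31713 and 27061 CPM in CAUDA-NR 1, 2 and 3. The leukocyte sum of CAUDA-NR 3 lay in the range of CAUDA-R, as its mmu-miR-449a-5p did, and its endothelial sum lay above it. The epithelial miRNAs summed to 62187 to 94722 CPM in CAUDA-R, against 84019, 61476 and 75195 CPM in CAUDA-NR, with overlap. The part of these cells in the family's values was not tested. Differences of the season change between tissues were tested as interactions, and 0 of 6 members and 0% of all miRNAs tested were called for testis against caput (677 tested), 0 of 6 and 0% for testis against cauda (713 tested) and 0 of 6 and 0% for caput against cauda (620 tested). Unadjusted p-values under 0.05 went to 0 members in each of these, and to 27, 62 and 35 of all miRNAs tested, in that order. The difference between testis and cauda for mmu-miR-34c-5p was set by the TESTIS-NR library kept. It was 3.29 in log2 without TESTIS-NR 3, where it was called, and -0.195 without TESTIS-NR 1, each with 1 lone TESTIS-NR library assumed to vary like the other groups.

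Ratios between counts of 1 library do not depend on scaling, so both arms of a hairpin can be set side by side. The balance of the miR-34b arms differed from tissue to tissue in R. The 3p arm made up 8.38%, 8.85% and 9.04% of the miR-34b counts in TESTIS-R, 20.7%, 38.8% and 27.9% in CAPUT-R and 59.1%, 67.4% and 65.8% in CAUDA-R. The 3 tissues did not overlap, and in CAUDA-R the 3p arm outnumbered the 5p arm in every library. The exact (Clopper-Pearson) 95% intervals were 8.20% to 9.54% for TESTIS-R 2, 35.4% to 42.3% for CAPUT-R 2 and 64.2% to 70.5% for CAUDA-R 2, and they cover counting error only, since no use of molecular identifiers is recorded in the labels.

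In the non-reproductive season the order of the tissues depended on the library. The 3p share of miR-34b was 0.857% (3 of 350 counts, interval 0.177% to 2.48%) in TESTIS-NR 1 and 10.9% in TESTIS-NR 3. It was 21.9% and 24.6% in CAPUT-NR. In CAUDA-NR it was 28.1%, 13.9% and 65.3%. Testis stayed lowest, CAPUT-NR lay in the range of CAPUT-R, and of the CAUDA-NR libraries CAUDA-NR 3 alone lay in the range of CAUDA-R. Where a sample from CAUDA-NR had little mmu-miR-34b-3p it also had little mmu-miR-449a-5p, in 2 of 3 libraries.

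**Figure D4:**
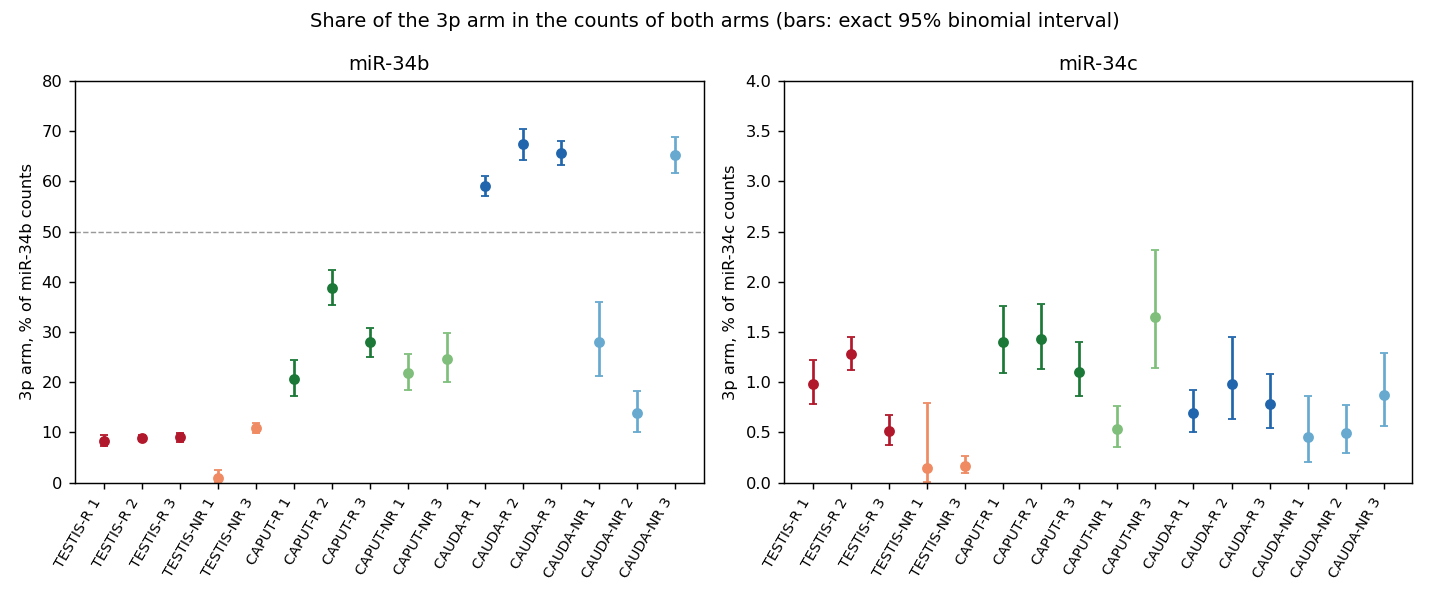
Share of the 3p arm in the counts of both arms of miR-34b (left) and miR-34c (right), in percent on axes of different length, for each of the 16 measured libraries. Bars are exact 95% binomial intervals and the dashed line marks equal arms. For miR-34b CAUDA-R and CAUDA-NR 3 lie between 59.1% and 67.4%, and for miR-34c all 16 libraries lie at or under 1.65%.

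miR-34c, which shares its primary transcript with miR-34b, had a small 3p share throughout. Its 3p arm made up 0.985%, 1.28% and 0.510% of the miR-34c counts in TESTIS-R and 0.143% and 0.164% in TESTIS-NR. In the caput the share was 1.40%, 1.43% and 1.11% in CAPUT-R and 0.532% and 1.65% in CAPUT-NR. In the cauda it was 0.693%, 0.980% and 0.782% in CAUDA-R and 0.457%, 0.497% and 0.873% in CAUDA-NR. The 5p arm therefore held at least 98.3% of the miR-34c counts in every measured library, and only in the testis did the seasons not overlap. The mean log2 ratio of 5p over 3p was lower in R than in NR (difference -1.04, exact permutation p = 0.0175, adjusted p = 0.0571 over 20 tests), which did not pass. The sign was the same in 3 of 3 tissues, but the difference was -2.20 in testis, -0.46 in caput and -0.45 in cauda. In TESTIS-NR 1 and 3 the 3p arm had 1 and 16 counts. For testis over caput the ratio was higher by 1.47 (exact permutation p = 0.0333, adjusted p = 0.0833), which did not pass either.

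Differences of log2 ratios were tested with two-sided exact permutation tests that kept season or tissue fixed, in a family of 20 tests. The log2 ratio of 5p over 3p of miR-34b was higher in testis than in cauda by 4.02 (exact permutation p = 0.01, adjusted p = 0.0571, with the same sign in both seasons), higher in testis than in caput by 2.59 (p = 0.0167, the smallest this design allows, adjusted p = 0.0571) and higher in caput than in cauda by 1.43 (p = 0.06, adjusted p = 0.109). Between seasons it was lower in R (difference -1.24, exact permutation p = 0.0475, adjusted p = 0.106), with the same sign in 3 of 3 tissues. Of the 20 tests 0 passed after adjustment, 9 had an unadjusted p under 0.05, and 7 shared the smallest adjusted p of 0.0571. The smallest p of single tests was limited by n: it was 0.0167 for testis against caput and 0.005 for each of these tissues against cauda. Leaving out TESTIS-NR 3 brought 5 tests between tissues and 2 between seasons past the threshold, and leaving out CAUDA-NR 3 brought 7 and 2, among them in both cases the miR-34b arm ratio of testis over caput and testis over cauda (adjusted p = 0.0476 and 0.04, exact permutation tests).

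The balance of the miR-34b and miR-34c 5p arms, which share a transcript, also separated testis from epididymis. There were 3.70, 2.86 and 2.55 counts of mmu-miR-34c-5p for each count of mmu-miR-34b-5p in TESTIS-R and 2.01 and 3.10 in TESTIS-NR. In the caput there were 11.5, 11.03 and 8.89 in CAPUT-R and 12.7 and 8.21 in CAPUT-NR. In the cauda there were 6.53, 8.30 and 8.28 in CAUDA-R and 17.8, 14.6 and 11.2 in CAUDA-NR. All 5 testis libraries stood below all 11 epididymal ones, and this held for TESTIS-NR 1 as well, in which both members were low. The log2 ratio was lower in testis than in cauda (difference -1.93, exact permutation p = 0.005, the smallest this design allows, adjusted p = 0.0571) and lower than in caput (-1.91, exact permutation p = 0.0167, adjusted p = 0.0571). Between caput and cauda the difference over both seasons was -0.02 (exact permutation p = 0.955). It was made of 0.44 in R and -0.48 in NR, so opposite signs cancelled, and each season alone was not tested. In R every CAPUT-R ratio stood above every CAUDA-R ratio, and in NR the 2 tissues overlapped. Since the 5p arms are nearly alike in sequence, reads assigned to the wrong member would move this ratio, which was not tested.

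mmu-miR-449a-5p and mmu-miR-34c-5p come from different loci. For each count of mmu-miR-34c-5p there were 0.623, 0.658 and 0.452 counts of mmu-miR-449a-5p in TESTIS-R and 0.408 and 0.352 in TESTIS-NR. There were 0.0464, 0.0341 and 0.0760 in CAPUT-R and 0.0555 and 0.0938 in CAPUT-NR. There were 0.444, 0.307 and 0.385 in CAUDA-R, against 0, 0.00236 and 0.366 in CAUDA-NR 1, 2 and 3. TESTIS-NR 1, in which both members were low, had a ratio close to that of TESTIS-NR 3, so they were low there in similar proportion. In CAUDA-NR 1 and 2 mmu-miR-449a-5p was at or near 0 counts while mmu-miR-34c-5p still had 300.5 and 297.8 CPM.

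**Figure D5:**
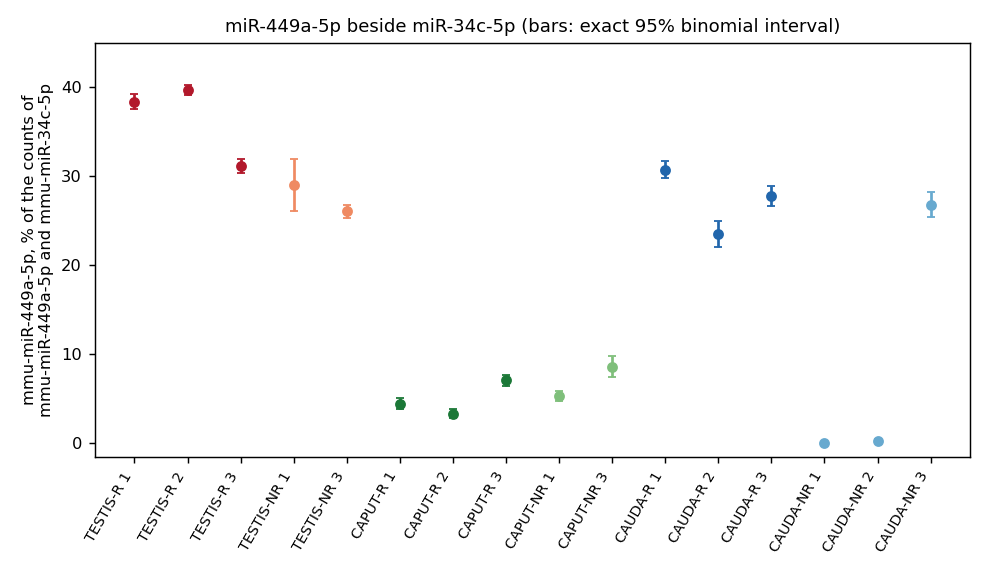
Counts of mmu-miR-449a-5p as a percentage of the counts of mmu-miR-449a-5p and mmu-miR-34c-5p together (vertical axis) in each of the 16 measured libraries, with exact 95% binomial intervals. Testis libraries lie between 26.1% and 39.7%, caput libraries between 3.29% and 8.57%, CAUDA-R between 23.5% and 30.7%, and CAUDA-NR divides into 0% and 0.236% against 26.8%.

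The log2 ratio of mmu-miR-449a-5p over mmu-miR-34c-5p was higher in testis than in caput by 2.96 (exact permutation p = 0.0167, adjusted p = 0.0571), with the same sign in both seasons. Testis against cauda gave 3.28 (exact permutation p = 0.115, adjusted p = 0.164), made of 0.61 in R and 5.95 in NR. Caput against cauda gave -2.92 in R and 3.55 in NR, so the mean differences had opposite signs, which was not tested. Both NR values against cauda rest on CAUDA-NR 1 and 2, with log2 ratios of -11.94 and -8.65. CAUDA-NR 1 had 0 counts of mmu-miR-449a-5p, so its log2 ratio depends on the amount added to each count. CAUDA-NR 3, at -1.45, lay above CAPUT-NR 1 and 3 (-4.17 and -3.41), the order seen in R, and CAUDA-NR 1 and 2 lay below them. Without CAUDA-NR 1 or CAUDA-NR 2 the value of caput against cauda over both seasons, 0.32, became -0.83 or -0.01. mmu-miR-34a-5p over mmu-miR-34c-5p was 0.0818, 0.116 and 0.0377 in TESTIS-R and 0.602 and 0.0463 in TESTIS-NR 1 and 3, so mmu-miR-34a-5p was not low in TESTIS-NR 1 as mmu-miR-34c-5p was. In the cauda that ratio was 0.0420, 0.0681 and 0.0374 in CAUDA-R, against 0.101, 0.0982 and 0.0811 in CAUDA-NR, with no overlap. Over the 3 tissues the log2 ratio was lower in R (difference -0.88, exact permutation p = 0.0575, adjusted p = 0.109), and without TESTIS-NR 3 it was -1.49 (adjusted p = 0.025), while without TESTIS-NR 1 it was -0.26 (adjusted p = 0.612, exact permutation tests).

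Across the 16 measured libraries the 15 pairs of members had Pearson correlations of log2(CPM + 1) of 0.33 to 0.94, lowest for mmu-miR-34a-5p with mmu-miR-34b-3p and highest for mmu-miR-34b-5p with mmu-miR-34c-5p. These points share libraries and mostly describe the gap between testis and epididymis. Among 219 mouse-named miRNAs outside the family with a mean of at least 10 CPM, the median correlation with the mean of the 6 members was -0.08, and 11 reached 0.8. Of 101 such entries without a mouse name, 13 reached 0.8. The 5 mouse-named miRNAs most like the family were mmu-miR-15b-5p (r = 0.94), mmu-miR-132-5p (0.93), mmu-miR-425-5p (0.91), mmu-miR-375-3p (0.91) and mmu-miR-25-3p (0.90). Their rank correlations (Spearman) were 0.83, 0.88, 0.80, 0.85 and 0.53, in that order.

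A pair of these, singled out after their values were seen, also divided the libraries within groups. mmu-miR-132-5p had 382.3, 451.6 and 340.2 CPM in TESTIS-R, against 78.4 and 447.5 CPM in TESTIS-NR 1 and 3. In the cauda it had 106.7, 112.4 and 109.0 CPM in CAUDA-R, against 20.7, 24.5 and 84.0 CPM in CAUDA-NR 1, 2 and 3. mmu-miR-375-3p had 155.7, 107.9 and 153.0 CPM in CAUDA-R, against 20.5, 9.62 and 90.5 CPM in CAUDA-NR 1, 2 and 3. Since likeness over these same libraries chose both, their order within CAUDA-NR restates that choice and is no separate evidence.

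The table held 3 further entries with a name of the family, all close to absent. mmu-miR-34a-3p had at most 13 counts in a library and was seen in 10 of 16. mmu-miR-449b had at most 4 counts, in 2 libraries. An entry named after a chicken miR-449b 3p arm had 11 and 12 counts in TESTIS-R 1 and 3 and 12 counts in TESTIS-NR 3, and 0 in the other 13 libraries. TESTIS-R 2, which had the highest level of mmu-miR-449a-5p, was among those at 0. The 5p arm of miR-34a was thus nearly the sole arm counted, as for miR-34c.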

How the data were processed

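Small RNA was sequenced with single reads of 50 nt from total RNA with integrity numbers of at least 7, per the labels. The authors deposited raw miRNA counts per library, with no normalization. Per the submitters' processing notes featureCounts and bedtools were used, and their versions, the aligner, the build and the handling of reads with several matches are not given in the sources at hand. A table of piRNA counts deposited by the authors served for piRNA totals only. The tables of genes and piRNA clusters were not used here. 2 averaged miRNA columns were left out, as the rule for the members states, and in the measured columns at most 5.77% of entries equalled such a mean. Within groups rank correlations of measured libraries were 0.770 to 0.906.

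Groups were compared with edgeR 4.0.16 in R 4.3.3 (TMM scaling, default filter on low counts, quasi-likelihood test, Benjamini-Hochberg adjustment over all miRNAs tested, threshold 0.05), with only the groups compared in a fit. All 6 members passed the filter in each comparison. Levels are CPM of the column total. Ratios had 0.5 added to each count on the log2 scale and none in the plain ratios, and the 20 ratio tests were adjusted together. Code was tested on simulated data. Shares have exact 95% binomial intervals, and the floor is 3 counts.

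The members, marker lists and ratios were chosen with earlier results of these data known. The naming rule took all members, other entries named miR-34 or miR-449, and the 5 mouse-named miRNAs most like the mean of the members. Its wording also caught 2 arms of miR-342, which belong to another family. Alternatives were other scalings (DESeq2 size factors, library totals with and without miR-101), no filter, DESeq2 1.42.0, replicate number as a block, all libraries in 1 fit, averaged columns kept, 1 added to counts in ratios, and each library left out.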

Additional observations from a re-analysis of the deposited data

Results flagged for a closer look

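mmu-miR-34a-5p stood on opposite sides of its season contrast in testis and cauda. All 3 TESTIS-R libraries were above both TESTIS-NR libraries, with a mean 2.40 times as high. In the testis 19.2% of all miRNAs tested stood higher in R without overlap. All 3 CAUDA-R libraries were below all 3 CAUDA-NR libraries, with a mean 0.787 times as high. In the cauda 14.3% of all miRNAs tested stood lower in R without overlap. The share that did both is not given here. The member was flagged for this pattern, so the pattern is no separate evidence. The difference between the season changes of testis and cauda was tested as an interaction and did not pass (log2 difference 1.40, SE 0.62, edgeR adjusted p = 0.525, unadjusted p = 0.0504).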

How the results depend on the processing

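Of 1093 values of single members or ratios under an alternative, 966 kept their direction and their side of the threshold, 38 lost a call, 40 gained one and 49 changed sign. Of 208 counts of calls, 174 stayed within 1.5 times the count given in the report. The cause of the changes was not tested. The testis calls in R held for 34a, 34b-5p and 34c-5p (names shortened from mmu-miR here) under every alternative run, and that of 449a over cauda was lost with all libraries in 1 fit (adjusted p = 0.213, edgeR), as were those of 34b-3p (0.268) and 34c-3p (0.122) over caput, which no filter also lost (0.0868 and 0.107). TESTIS-NR and CAPUT-NR hold 2 libraries, which limits precision, and a member with under 10 counts in a library has a wide counting interval there.

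Counts of members called changed as follows, with the share of all miRNAs tested in brackets. In the cauda season contrast DESeq2 called 1 (8.36%), against 0 (3.08%). For TESTIS-R over CAPUT-R no filter gave 4 (15.5%) and 1 fit 4 (28.7%), against 6 (51.0%). For CAPUT-R over CAUDA-R scaling by library total gave 1 with or without the miR-101 entries (12% and 13.4%), DESeq2 gave 3 (24.9%), and no filter (3.54%), the replicate block (0%) and all libraries in 1 fit (6.76%) gave 0, against 2 (17.4%). For TESTIS-NR over CAPUT-NR 1 fit gave 2 (15.1%) and the averaged columns kept gave 3 (55.3%), against 0 (0%). For TESTIS-NR over CAUDA-NR DESeq2, its size factors, library totals with or without miR-101, 1 fit and the averaged columns kept each gave 2 (20.8% to 52.5%), and no filter (5.36%) and the replicate block (0%) gave 0, against 1 (29.9%). The averaged columns kept gave 6 ratio tests between tissues and 1 between seasons, against 0.

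The labels used here do not say whether same-numbered libraries share an animal. Of 22 same-numbered pairs, 7 had deviations correlated above 0.1 (-0.16 to 0.40), and the highest was TESTIS-R 3 with CAPUT-R 3. Pairs across seasons are among them and each group holds few libraries, so these values cannot decide whether libraries are paired. The replicate block changed no call besides those counted here, and turned the sign of 449a in the caput season contrast (0.041) and in CAPUT-NR over CAUDA-NR (2.35), and of 34b-3p in TESTIS-NR over CAPUT-NR (-0.36) and over CAUDA-NR (-1.30).

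Signs turned, on the log2 scale, in changes that were not called. In the caput season contrast 34a had 0.015 and 449a had 0.012 with library totals, and 449a had 0.0010 in 1 fit. 34b-3p in TESTIS-R over CAUDA-R had 0.28 with totals without miR-101. For CAPUT-R over CAUDA-R 34a had 0.0062 with DESeq2 size factors, 0.0057 with DESeq2, 0.040 with no filter and 0.012 in 1 fit, and 34c-5p had -0.080 and -0.17 with totals with and without miR-101. For TESTIS-NR over CAUDA-NR 34c-3p had 0.28 with DESeq2 size factors, 0.29 with DESeq2, 0.13 and 0.51 with totals with and without miR-101, 0.26 with no filter, 0.0013 in 1 fit and 0.61 with the averaged columns kept.

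Without each library in turn, 4 to 5 members were called for TESTIS-R over CAPUT-R, against 6 with none left out. The share of all miRNAs called in those fits is not given here. In the cauda season contrast counts ran from 0 to 1, and the 1 came without CAUDA-NR 3, where 24 of all 504 miRNAs were called. They ran from 0 to 1 for CAPUT-R over CAUDA-R, where 8 to 68 of the 523 to 562 miRNAs tested were called. For TESTIS-NR over CAUDA-NR the count was 0 without CAUDA-NR 1, 2 or 3, where 0 of 431, 0 of 437 and 18 of 431 miRNAs were called. Called ratios ran from 0 to 7 between tissues and 0 to 2 between seasons. Changes that turned sign ran from -0.013 to 7.29 for 34b-3p in the testis season contrast, and in the caput one from -0.46 to 0.34 for 34a, -0.14 to 0.88 for 34c-5p and -0.52 to 0.13 for 449a. They ran from -0.57 to 0.0048 for 34b-3p in TESTIS-R over CAUDA-R, and in CAPUT-R over CAUDA-R from -0.14 to 0.059 for 34a and -0.48 to 0.11 for 34b-5p. In TESTIS-NR over CAPUT-NR they ran from -4.23 to 2.57 for 34b-3p and -1.55 to 2.47 for 34c-5p, and over CAUDA-NR from -4.84 to 3.45 for 34b-3p, -0.80 to 2.63 for 34c-5p and -2.86 to 0.63 for 34c-3p. In CAPUT-NR over CAUDA-NR they ran from -1.36 to 1.58 for 34b-3p and -1.07 to 6.35 for 449a, and for the difference between testis and cauda from -0.20 to 3.29 for 34c-5p. Log2 ratios ran from -0.18 to 0.14 for 34c-5p over 34b-5p and -0.83 to 1.79 for 449a over 34c-5p between caput and cauda, and from -0.22 to 1.64 for 34a over 34c-5p between testis and cauda.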
